A study of Mus musculus with 35 samples.

Results

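Of 1231362 full 2-kb tiles on the mouse autosomes, 342 were open in naive embryonic stem cells and lost accessibility over 2 days of differentiation in both parental lines of the series. A tile was taken when its mean deposited level at D0 was at least 0.5 log2 RPKM and its mean at D2 lay at least 1.5 log2 units lower, in TET_WT and separately in DNMT_WT. RPKM is the number of reads per kilobase of tile, scaled to the size of the library, and each log2 unit is a doubling. The condition was met by 668 tiles in TET_WT and by 1587 in DNMT_WT, so the shared tiles were 51.2% of the first set and 21.55% of the other, and 2.46% of the 13905 tiles that were open at D0 in both. The tiles were thus selected on the parental levels at D0 and D2, which are given as a description only.

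The assay was ATAC-seq on 10000 cells per library: a transposase cuts where DNA is not packed and leaves adapters behind, so reads pile up over open regions. All 4 lines were mouse embryonic stem cells. D0 libraries came from cells cultured with 2i and Lif, which hold them naive, and D1 and D2 libraries from cells on their way to epiblast-like cells, 1 and 2 days later. In TET_KO the genes Tet1, Tet2 and Tet3 were all knocked out. They encode the dioxygenases that oxidise 5-methylcytosine and so start its removal. In DNMT_KO all of Dnmt1, Dnmt3a and Dnmt3b, the genes of the enzymes that methylate DNA, were knocked out. TET_WT and DNMT_WT are the wild-type lines from which the knockouts were made. There were 3 libraries for each line and day but only 2 for TET_KO at D2 (replicates 1 and 3). The labels name no separate clones or cultures, so p-values reflect the variation among these libraries, which may be technical. Tile accessibility does not check the deletions, and the state of the cells was read from no expression data here.

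Naive stem cells hold a set of enhancers, short regulatory regions bound by transcription factors, that keep genes of the preimplantation epiblast active. When 2i and Lif are withdrawn the naive factors fall away, their enhancers lose the factors and are packed into nucleosomes, and a formative programme takes over. Promoters, the stretches around transcription starts, tend to stay open through this change, many of them being rich in unmethylated CpG. DNA methylation is low in naive cells and is laid down during this exit.

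The tiles lay mostly away from known start sites, and a description of them as promoter tiles could be shown for 2 tiles only. Start sites were at hand for 17273 of the 21627 protein-coding genes, so each count of tiles with a start site is a minimum. The 11 tiles on chromosome 18 could not be classed, which left 331 of the 342. A start site of a protein-coding gene lay in 2 of these (0.604%), against 45.3% of the 13582 classed tiles open at D0 in both parental lines and 4.65% of all tested tiles. Another 148 (44.7%) lay inside a gene without holding a known start site, and 181 (54.7%) outside genes. The median distance to the nearest known start site was 44.3 kb, against 1.33 kb for the open tiles and 31.8 kb for all tested tiles. Within 5 kb of a known start site lay the centres of 22 closing tiles (6.65%), 57.8% of the open tiles and 16.5% of all tested tiles. More than 50 kb from any protein-coding gene lay 63 closing tiles (18.4%), against 4.55% of the open tiles. These shares are descriptions, without a test.

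**Figure D1:**
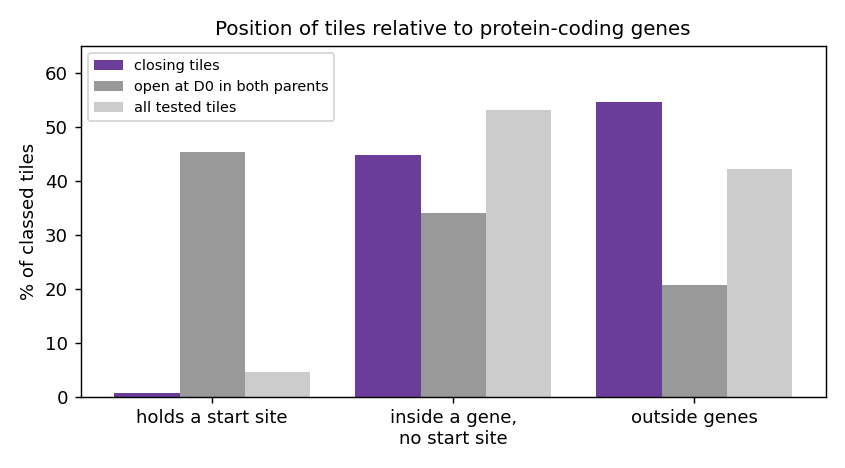
Share of classed tiles (vertical axis, %) that hold a known start site of a protein-coding gene, lie inside a gene without one, or lie outside genes, for the 331 closing tiles, the 13582 tiles open at D0 in both parental lines and all tested tiles. Closing tiles had a known start site in 0.604% of cases and open tiles in 45.3%.

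The exceptions were a tile of Cnga4, which encodes a subunit of the cyclic nucleotide-gated channel of olfactory neurons, and a tile of Sh2d4b, which encodes a protein with an SH2 domain. Both were picked out after their values were seen. They are shown because they are the only closing tiles, of those classed, with a known start site inside. The sequences are the 250 bases before each start site, from RefSeq (GRCm38.p6), 5′ to 3′ on the strand of the gene. The Cnga4 window is chr7:105404318-105404567 on the plus strand, in the tile chr7:105404001-105406000, and the Sh2d4b window is chr14:40893315-40893564 on the minus strand, in the tile chr14:40892001-40894000.
Cnga4: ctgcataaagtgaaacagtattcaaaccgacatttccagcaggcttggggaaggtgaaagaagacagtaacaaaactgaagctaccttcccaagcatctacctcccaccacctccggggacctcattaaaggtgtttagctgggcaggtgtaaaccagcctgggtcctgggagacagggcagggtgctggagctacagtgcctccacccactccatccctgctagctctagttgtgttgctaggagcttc
Sh2d4b: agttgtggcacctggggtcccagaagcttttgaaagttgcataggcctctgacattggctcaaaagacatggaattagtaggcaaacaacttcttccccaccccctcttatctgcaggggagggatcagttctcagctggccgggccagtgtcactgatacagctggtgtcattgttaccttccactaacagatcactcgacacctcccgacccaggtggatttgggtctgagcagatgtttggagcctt
The Cnga4 window held 2 CpG and 52.8% G and C, and the Sh2d4b window 3 CpG and 52% G and C. The median over the 7645 promoter windows that start in a tile open at D0 in both parental lines was 19 CpG and 62.8%, and over all 21044 windows 10 CpG and 55.6%. Short letter strings of 6 kinds were searched on both strands of each window and none was found in either, which is why no letter is in capitals. They were TCAAGGTCA (Esrrb type, in 0.323% of all windows), TTCCNGGAA (Stat type, 0.96%), the Oct4-Sox2 composite (0.019%), AACCGGTT (grainyhead type, 0.143%), GGGTGTGG (Klf type, 3.34%) and CTTTGATC (Tcf type, 0.751%).

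The Cnga4 tile stood at 0.76, 0.74 and 1.63 log2 RPKM in the D0 libraries of TET_WT and at -1.93, -0.85 and -0.29 at D2, and at 1.78, 2.07 and 1.63 against -0.27, -0.26 and -0.50 in DNMT_WT. In DNMT_KO it fell by 1.59 log2 units (SE 0.40, adjusted p = 0.0169), a call lost without DNMT_KO D0 replicate 2 or 3 (0.115 and 0.0965) or D2 replicate 1 or 2 (0.112 and 0.143). In TET_KO the difference was -0.94 (SE 0.45, adjusted p = 0.547). The Sh2d4b tile stood between 1.99 and 2.79 at D0 and between -0.08 and 0.39 at D2 in TET_WT. It fell by 2.27 in DNMT_KO (SE 0.34, adjusted p = 2.08e-06). In TET_KO it fell by 1.70 (SE 0.37, adjusted p = 0.0074), a call lost without D0 replicate 1 (0.0602) or D2 replicate 1 or 3 (0.191 and 0.0665).

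The libraries held 4171462 to 23686796 reads in tiles. The median closing tile had 20 to 77 reads in a D0 library, 5 to 14 at D1 and 5 to 13 at D2, so single D1 and D2 values rest on few reads. D1 libraries held 5.62 to 46.8% mitochondrial reads and D0 and D2 libraries none, which shows other processing. Day and processing cannot be told apart between D1 and the other days. All 12 D1 libraries held mitochondrial reads, with shares of 5.62, 19.2 and 14.1% in TET_WT, 8.37, 28.4 and 35% in TET_KO, 27, 28.9 and 9.93% in DNMT_WT and 12.3, 6.05 and 46.8% in DNMT_KO, and the part of these shares in the D1 comparisons was not tested. One library stood apart in the choice of tiles. TET_WT D0 replicate 3 had a mean deposited level of 1.60 over the closing tiles, against 0.915 and 0.977 in replicates 1 and 2, and without it the rule found 216 tiles, 210 of them among the 342. A narrower set of 127 tiles met the rule whichever of the 12 parental libraries was left out. Results are given for the 342 tiles, and the main counts also for the 210.

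At the edge of the rule, the tiles nearest to the threshold had a smaller fall of -1.50072 just inside it and -1.4987 just outside. The lower D0 level was 0.501 just inside and 0.493 just outside. In the values that chose them, the tiles changed by a median of -1.87 in TET_WT (from -3.21 to -1.501) and -2.14 in DNMT_WT (from -4.66 to -1.504). The tiles were spread over 303 loci more than 50 kb apart, of which 272 held a single tile, 24 a pair and 7 at least 3. Chromosome 15 had 3 closing tiles for 482 open ones (0.622%) and chromosome 3 had 27 for 687 (3.93%).

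In both knockouts the closing tiles lost accessibility from D0 to D2, as they did in the parental lines. These libraries took no part in choosing the tiles. After quantile normalisation, which gives every library the same distribution of values, the mean level over the closing tiles in TET_KO went from 1.19 ± 0.08 at D0 (SD, n = 3) to -0.80 ± 0.05 at D2 (n = 2). In DNMT_KO it went from 1.24 ± 0.12 to -0.77 ± 0.03 (n = 3 each). Beside them TET_WT went from 1.35 ± 0.17 to -0.76 ± 0.18 and DNMT_WT from 1.40 ± 0.04 to -0.82 ± 0.02 (n = 3 each). In neither knockout did a D2 library overlap a D0 library in this mean. In the parental lines the tiles were chosen for this fall. The mean over all tiles open at D0 in both parental lines stayed between 1.09 and 1.39 in the 12 groups.

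**Figure D2:**
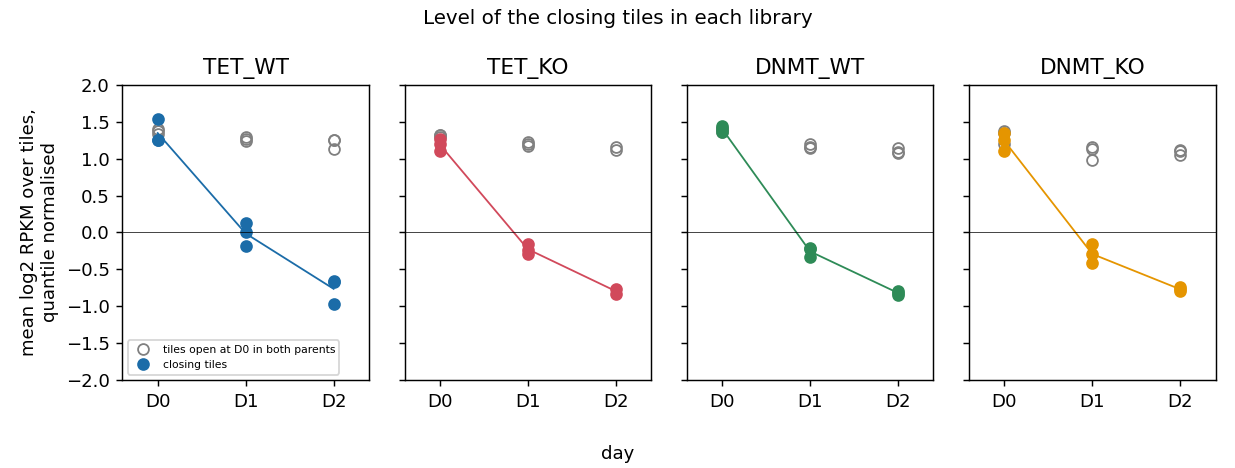
Mean quantile-normalised log2 RPKM (vertical axis) over the 342 closing tiles (filled points, 1 per library, lines through group means) and over the 13905 tiles open at D0 in both parental lines (open points), by day in each line. The closing tiles dropped below 0 by D2 in every library while the open tiles stayed near their D0 level.

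Tile by tile, limma over all 307709 tested tiles called 206 of the 342 (60.2%) lower in TET_KO and none higher. Over all tested tiles the shares were 0.476% and 0.0864%. In DNMT_KO 266 (77.8%) were called lower and none higher, against 1.07% and 0.226% of all tested tiles. In counts of tiles, fell means called lower. With or without a call, 340 closing tiles lay below 0 in TET_KO and 342 in DNMT_KO, against 47.9% and 48% of all tested tiles. The median difference over the closing tiles was -1.99 in TET_KO (5th to 95th percentile -3.09 to -0.81) and -2.01 in DNMT_KO (-3.14 to -0.91), where the median of all tested tiles was 0.03 in each. Every D2 library lay below every D0 library at 325 tiles in TET_KO (12.3% of all tested tiles) and at 321 in DNMT_KO (8.02%). The fall passed the test in both knockouts at 173 tiles, in TET_KO alone at 33, in DNMT_KO alone at 93 and in neither at 43. These numbers compare calls, not effects, and no tile differed between the knockouts in the size of its change when that difference was tested. There were 0 calls in either direction (0.00065% and 0.00195% of all tested tiles), 16 and 17 tiles at an unadjusted p under 0.05, and a smallest adjusted p of 0.352. The median SE of that difference was 0.66, and differences from -2.31 to 1.89 passed no test, so even differences of that size at a single tile were not detectable with these libraries.

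The counts depended on the filter and on depth: with no filter on tiles 76 fell in TET_KO and 121 in DNMT_KO, and with reads thinned to the shallowest library 84 and 119. On deposited values 136 fell in TET_KO. Without TET_KO D2 replicate 1 the count in TET_KO was 91, and without D2 replicate 3 it was 102. Of the 210 tiles that do not rest on TET_WT D0 replicate 3, 134 (63.8%) fell in TET_KO and 160 (76.2%) in DNMT_KO, and of the 127 tiles 99 (78%) and 112 (88.2%).

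**Figure D3:**
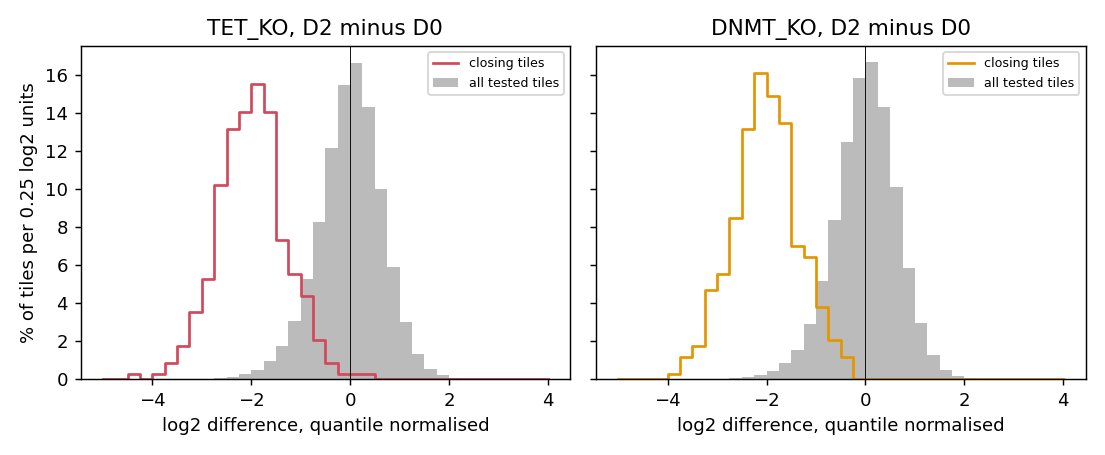
Distribution of the log2 difference between D2 and D0 (horizontal axis, quantile normalised) over the 342 closing tiles (line) and all 307709 tested tiles (grey bars) in TET_KO and DNMT_KO, as a percentage of tiles per bin. The closing tiles centre at -1.99 and -2.01, all tested tiles at 0.03.

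Read with the rule itself, on deposited values, 261 of the 342 tiles (76.3%) would have been chosen in TET_KO, 264 (77.2%) in DNMT_KO, 205 in both and 22 in neither. Most were open in the knockouts before differentiation, with 299 tiles at 0.5 or more in TET_KO and 303 in DNMT_KO at D0. The 67 tiles that met the rule in TET_WT alone, while open in both, met it in 38.8% of cases in TET_KO and 53.7% in DNMT_KO. The 662 that met it in DNMT_WT alone did so in 39.7% and 56.2%. Among the 12834 open tiles that met it in neither parent the shares were 1.70% and 3.21%.

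By count the naive list, the longest, had most closing tiles nearby, and by share of open tiles the trophoblast list. The lists were chosen with earlier results of these data known. With the nearest protein-coding gene within 50 kb, 6 of the 85 open tiles near the 25 naive genes were closing tiles (7.06%), near Klf5 (2), Tfcp2l1, Mras, Tdh and Jam2, against 2.46% of all open tiles. The other naive genes had none, among them Esrrb, Nanog, Klf2, Klf4, Tbx3, Zfp42 and Prdm14. The 12 trophoblast genes had 2 of 13 (15.4%), both near Tfap2c, the 19 formative genes 1 of 24 (4.17%), near Foxd3, and the 14 genes of the response to LIF and STAT3 1 of 38 (2.63%), in Tnfrsf21. Core pluripotency (15 open tiles), Wnt response (19), MAPK response (34), primitive endoderm (5), fibroblast or feeder (9) and housekeeping genes (16) had none. These are counts of few tiles, given without a test, and nearness does not show which gene a tile serves. Of these 10 tiles, 7 fell in TET_KO and 9 in DNMT_KO. Over all 342 closing tiles the shares were 60.2% and 77.8%, so the listed tiles do not stand out.

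**Figure D4:**
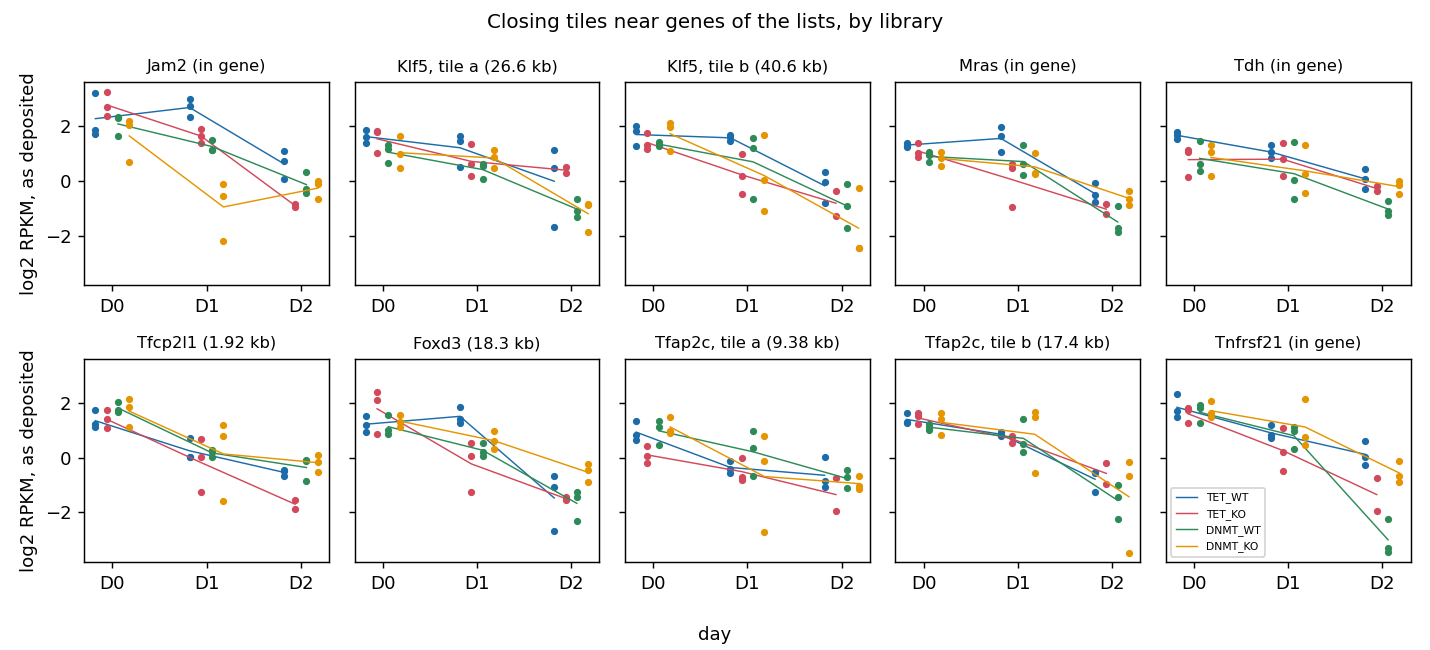
Deposited log2 RPKM (vertical axis) of the 10 closing tiles near listed genes by day, 1 point per library and lines through group means, with the distance to the gene in brackets. All lines end lower at D2 than at D0, and the tile in Jam2 is low in DNMT_KO already at D1. Deposited D1 values stand higher for the same share of reads than those of D0 and D2.

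Jam2 encodes a junctional adhesion molecule, and the tile chr16:84778001-84780000 inside it was among the most accessible of the set. Its D0 values were 1.72, 1.87 and 3.23 in TET_WT, 2.36, 2.70 and 3.26 in TET_KO, 2.33, 2.29 and 1.63 in DNMT_WT and 0.71, 2.03 and 2.19 in DNMT_KO. At D2 they were 0.07, 1.10 and 0.71, then -0.94 and -0.86, then -0.44, 0.33 and -0.30, then -0.13, -0.66 and -0.01. The groups of D0 and D2 did not overlap in either knockout, nor in the parental lines, whose levels chose the tile. It fell by 3.69 in TET_KO (SE 0.38, adjusted p = 7.19e-11) and fell by 1.73 in DNMT_KO (SE 0.34, adjusted p = 0.000761). It is 1 of the 132 tiles that rest on TET_WT D0 replicate 3.

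Tfcp2l1 is a transcription factor of the naive network, and the tile chr1:118624001-118626000 lies 1.92 kb outside the gene. It read 1.07, 1.74 and 1.41 at D0 and -1.53 and -1.86 at D2 in TET_KO, a change of -3.28 (SE 0.43, adjusted p = 2.17e-07). In DNMT_KO it read 1.14, 1.84 and 2.13 at D0 and -0.51, 0.11 and -0.14 at D2, a change of -1.74 (SE 0.38, adjusted p = 0.00329). Every D2 library was below every D0 library in both.

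Klf5, a zinc-finger factor of the same network, had closing tiles 26.6 kb (chr14:99340001-99342000) and 40.6 kb (chr14:99354001-99356000) from the gene. In DNMT_KO the nearer tile read 0.47, 0.99 and 1.62 at D0 and -0.83, -1.89 and -0.88 at D2, and it fell by 2.13 (SE 0.41, adjusted p = 0.000494). In TET_KO it read 1.03, 1.81 and 1.78 at D0 and 0.28 and 0.51 at D2, a difference of -1.003 (SE 0.46) that did not pass (adjusted p = 0.515). The farther tile fell by 3.29 in DNMT_KO (SE 0.44, adjusted p = 8.94e-08) and fell by 2.24 in TET_KO (SE 0.49, adjusted p = 0.00628), the last without a call when D2 replicate 3 was left out (0.396). The change at the nearer tile was therefore called in DNMT_KO only, and the difference between the knockouts passed the test at neither tile.

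Mras encodes a Ras-related GTPase and Tdh the threonine dehydrogenase on which mouse embryonic stem cells rely. The Mras tile (chr9:99420001-99422000, inside the gene) fell by 2.10 in TET_KO (SE 0.43, adjusted p = 0.00319), a call lost without D2 replicate 1 (0.121). In DNMT_KO it fell by 1.38 (SE 0.39, adjusted p = 0.0462), a call that no fit without 1 of the 6 libraries kept (0.0589 to 0.187). The Tdh tile (chr14:63508001-63510000, inside the gene) read 0.15, 1.05 and 1.13 at D0 and -0.36 and -0.20 at D2 in TET_KO, and 0.19, 1.31 and 1.06 against -0.02, -0.47 and -0.14 in DNMT_KO. Its D0 and D2 libraries did not overlap, and the differences of -0.89 and -0.91 missed the threshold (adjusted p = 0.569 and 0.313).

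Tfap2c, an AP-2 factor of trophoblast and germ cells that naive stem cells also use, had closing tiles 9.38 kb (chr2:172568001-172570000) and 17.4 kb (chr2:172576001-172578000) from the gene. The farther one read 0.84, 1.62 and 1.43 at D0 and -0.66, -3.47 and -0.14 at D2 in DNMT_KO, a change of -2.51 (SE 0.42, adjusted p = 3.22e-05). In TET_KO it fell by 1.90 (SE 0.47, adjusted p = 0.0248), a call lost in each of 5 fits without a library (0.0566 to 0.539). The nearer tile fell by 2.10 in DNMT_KO (SE 0.46, adjusted p = 0.00334; 0.0617 without D0 replicate 1). Its difference in TET_KO was -1.43 (SE 0.51, adjusted p = 0.276).

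Foxd3 is a forkhead factor active in the naive to formative transition. Its tile, chr4:99636001-99638000, 18.3 kb from the gene, was also 1 of the 10 that closed most in both parental lines. It read 0.96, 1.19 and 1.53 at D0 and -2.67, -0.68 and -1.05 at D2 in TET_WT, and 1.55, 1.00 and 0.86 against -1.44, -1.26 and -2.304 in DNMT_WT. It fell by 3.33 in TET_KO (SE 0.47, adjusted p = 1.92e-06) and fell by 1.81 in DNMT_KO (SE 0.42, adjusted p = 0.00726), the last with 0.0696 when D2 replicate 2 was left out. Tnfrsf21 encodes a death receptor, and the tile inside it (chr17:43036001-43038000) fell by 2.89 in TET_KO (SE 0.43, adjusted p = 7.51e-06) and fell by 2.21 in DNMT_KO (SE 0.38, adjusted p = 8.2e-05). At D2 it was lowest in DNMT_WT, with -3.44, -2.26 and -3.30, which stand for 1, 2 and 1 reads.

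The 10 tiles with the largest fall in both parental lines were near Foxd3, Scn3a, Car8, Elavl2, Fryl, Dnajb9, Fancm, Arsb, Kcnj6 and Smoc2, and apart from Foxd3 none is near a listed gene. All of them were called lower in DNMT_KO and 7 in TET_KO, where the tiles near Elavl2, Fryl and Smoc2 missed the call. In TET_KO the mean deposited level still went from 1.10 at D0 to -0.79 at D2 at Elavl2, and from 0.41 to -1.70 at Fryl. The DNMT_KO calls at Elavl2 (-1.92, adjusted p = 0.0396) and Fryl (-2.296, adjusted p = 0.0168) were lost in 4 and 3 of 6 fits without a library (up to 0.243 and 0.286, both without D2 replicate 3). The TET_KO call at Car8 was lost without D2 replicate 3 (0.15) and that at Dnajb9 without D2 replicate 1 (0.107). The tile chr12:65114001-65116000 lies inside Fancm, which encodes a DNA translocase of the Fanconi anaemia pathway. It changed by -3.11 in TET_KO (SE 0.43, adjusted p = 1.39e-06), from 1.29, 1.84 and 2.39 to -1.94 and -0.75, and by -2.91 in DNMT_KO (SE 0.39, adjusted p = 1e-07), from 1.03, 1.67 and 1.62 to -1.83, -1.47 and -1.14. The tile chr13:93966001-93968000, 23 kb from Arsb, the gene of the lysosomal enzyme arylsulfatase B, was at 1.49, 1.47 and 1.79 at D0 in TET_WT. It fell by 3.10 in TET_KO (SE 0.50, adjusted p = 5.75e-05) and fell by 2.49 in DNMT_KO (SE 0.45, adjusted p = 0.00015).

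Scn3a encodes a sodium channel of neurons, and the tile chr2:65436001-65438000 lies 19.1 kb from it. It read 1.15, 1.90 and 1.07 at D0 and -2.53 and -2.13 at D2 in TET_KO, a change of -3.91 (SE 0.53, adjusted p = 9.55e-07), and it fell by 2.80 in DNMT_KO (SE 0.48, adjusted p = 5.13e-05). The tile inside Smoc2, a matricellular protein gene, fell by 3.40 in DNMT_KO (SE 0.45, adjusted p = 1.06e-07). In TET_KO its difference was -1.74 (SE 0.51, adjusted p = 0.0975). At the Kcnj6 tile, inside the gene of an inward rectifier channel, the changes of -2.31 in TET_KO (SE 0.61, adjusted p = 0.0453) and -2.10 in DNMT_KO (SE 0.54, adjusted p = 0.022) lost the call in each of 5 fits without a TET_KO library (0.116 to 0.352) and in 4 of 6 without a DNMT_KO library (up to 0.183).

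Of the 7 loci with at least 3 closing tiles, which held 22 tiles, 3 had every tile called lower in TET_KO (those of Slc30a1 and Rd3, Sh2d4b and Dym) and 3 in DNMT_KO (those of the Pramel genes, Ppp2r2c and Dym). Only the Dym locus had every tile called in both. Its TET_KO call at chr18:75222001-75224000 was lost without D0 replicate 1, 2 or 3 (0.0872, 0.153 and 0.0637), and the change was -1.49 without D2 replicate 3. At chr18:75210001-75212000 and chr18:75234001-75236000 the TET_KO changes were -2.21 and -2.36 without D2 replicate 3, against -3.13 and -2.60 with all libraries. In DNMT_KO the calls at chr18:75222001-75224000 and chr18:75234001-75236000 held in 5 and 2 of 6 fits without a library (up to 0.0575 and 0.182). The TET_KO call at chr1:191930001-191932000, near Slc30a1, was lost without D0 replicate 2 or 3 (0.0625 and 0.0617). Without D2 replicate 3 its change was -1.18, against -2.10 with all libraries. At chr1:191932001-191934000 and chr1:191946001-191948000 the TET_KO changes were -1.78 and -1.89 without D2 replicate 1, against -2.12 and -2.17. At Ppp2r2c, which encodes a regulatory subunit of protein phosphatase 2A, all 3 tiles were called in DNMT_KO and 0 in TET_KO. In TET_KO they changed by -1.93, -1.83 and -1.56 (SE 0.55, 0.52 and 0.52, adjusted p = 0.0895, 0.0852 and 0.204). In DNMT_KO they changed by -1.83, -2.16 and -1.80 (SE 0.49, 0.47 and 0.46, adjusted p = 0.0334, 0.00272 and 0.0207). The difference between the knockouts passed the test at none of these tiles, so the calls do not show that the locus closed in DNMT_KO alone. Each of its DNMT_KO calls was lost in at least 1 of 6 fits without a library (up to 0.24, 0.0903 and 0.153). The Slc30a1 and Rd3 locus had 2 of 3 tiles called in DNMT_KO, and the Erich1 locus 2 of 3 in each knockout. On chromosome 2, 4 tiles between chr2:87480001-87482000 and chr2:87534001-87536000 flank Pramel7 and Pramel6, members of the PRAME-like family expressed in preimplantation embryos and naive cells, and the olfactory receptor gene Olfr153. All 4 fell in DNMT_KO, with changes of -1.98, -2.90, -2.32 and -1.94 (SE 0.38, 0.41, 0.37 and 0.41, adjusted p = 0.000466, 8.63e-07, 9.57e-06 and 0.00202), the last without a call when D0 replicate 2 or 3 was left out (0.0908 and 0.0561). The first 3 fell in TET_KO, with changes of -1.92, -2.07 and -2.06 (SE 0.42, 0.46 and 0.41, adjusted p = 0.00759, 0.00937 and 0.00193). Leaving out D2 replicate 1 or 3 ended each of these 3 calls in at least 1 of the 2 fits, with values from 0.0697 to 0.361, and leaving out D0 replicate 3 ended the first 2 (0.0853 and 0.0786). The family has near-identical copies, and the sources used here do not say how reads with several matches were placed, so these levels are uncertain.

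The locus near Sh2d4b on chromosome 14 held the promoter tile above, its neighbour chr14:40890001-40892000 and the tile chr14:40864001-40866000, all inside the gene. The last of these went from 1.43, 1.88 and 2.22 at D0 to -3.83, -1.15 and -0.88 at D2 in DNMT_KO, a change of -3.59 (SE 0.39, adjusted p = 7.42e-11). It fell by 2.66 in TET_KO (SE 0.43, adjusted p = 5.77e-05). The neighbour of the promoter tile missed the threshold in DNMT_KO (-1.41, SE 0.41, adjusted p = 0.0556), and its call in TET_KO (-1.74, SE 0.46, adjusted p = 0.044) held in 1 of 5 fits without a library (up to 0.304). Of the 3 tiles 9.72 to 17.7 kb from Zbtb44 on chromosome 9, the outer ones fell in both knockouts, with changes of -2.42 and -2.33 in TET_KO (SE 0.42 and 0.41, adjusted p = 0.000181 and 0.000305) and of -1.86 and -2.73 in DNMT_KO (SE 0.37 each, adjusted p = 0.000974 and 1.95e-07). The tile between them missed the threshold in both (-1.89, SE 0.57, adjusted p = 0.122, and -0.84, SE 0.51, adjusted p = 0.571).

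The largest fall in TET_KO was at a tile inside Filip1l (chr16:57472001-57474000), which went from 1.71, 1.67 and 2.31 at D0 to -1.53 and -2.86 at D2. The change was -4.31 (SE 0.57, adjusted p = 4.07e-07), and D2 rested on 4 and 3 reads. In DNMT_KO the largest change was at a tile inside Garem1 (-3.91, SE 0.49, adjusted p = 1.81e-08), followed by tiles 104 kb from Galnt13 (-3.60, SE 0.48, adjusted p = 9.09e-08), in Sh2d4b as above, 15 kb from Olfr976 (-3.52, SE 0.48, adjusted p = 1.59e-07) and inside Epha3 (-3.51, SE 0.48, adjusted p = 2.47e-07). Epha3 encodes an ephrin receptor. Its tile also fell by 3.02 in TET_KO (SE 0.54, adjusted p = 0.000305).

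At the other end, a few closing tiles hardly moved in TET_KO. The tile inside Palld (chr8:61554001-61556000) was at 0.90, 1.11 and 1.60 at D0 in TET_WT and at -0.93, -0.48 and -0.39 in TET_KO, where D2 was at -0.36 and -0.45 (difference 0.29, SE 0.49, adjusted p = 0.951). In TET_KO its D0 libraries were thus all below those of TET_WT. Plekhb2 was alike, with -0.10, -0.48 and -0.59 at D0 and 0.17 and -0.64 at D2 in TET_KO (difference 0.19, SE 0.45, adjusted p = 0.969). The tile inside Zfpm2, a cofactor of GATA factors, differed from these. It read 0.90, 1.30 and 1.89 at D0 in TET_KO and still 1.28 and 0.76 at D2 (difference -0.25, SE 0.46, adjusted p = 0.954), while in DNMT_KO it fell by 2.14 (SE 0.41, adjusted p = 0.000423). In DNMT_KO the smallest changes were at Nkx1-2 (-0.29, SE 0.43, adjusted p = 0.883), Atp8b2 (-0.35, SE 0.48, adjusted p = 0.867) and Ap3b1 (-0.35, SE 0.39, adjusted p = 0.818), where D0 and D2 libraries overlapped. At Ap3b1 the D0 libraries of DNMT_KO read -0.16, 0.26 and 0.76.

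At D1 the mean over the closing tiles lay between its D0 and D2 levels in all 4 lines, and the size of that step differed between scales. The mean quantile-normalised level at D1 was -0.01 ± 0.16 in TET_WT, -0.23 ± 0.07 in TET_KO, -0.26 ± 0.07 in DNMT_WT and -0.29 ± 0.13 in DNMT_KO (SD, n = 3 each). The median difference between D1 and D0 was -1.32, -1.43, -1.71 and -1.56 in that order. The median share of the whole fall reached by D1 was 64.3%, 70.2%, 75.8% and 76%. On the deposited scale the medians were -0.62, -1.06, -1.09 and -1.14, beside -1.87, -2.03, -2.14 and -2.07 from D0 to D2. Deposited D1 values stand higher for the same share of reads than those of D0 and D2. They therefore do not show how much of the fall D1 had reached. In TET_WT the closing tiles held 0.117, 0.124 and 0.193% of the reads in autosomal and X tiles at D0. The shares were 0.0586, 0.0735 and 0.0636% at D1 and 0.0341, 0.0404 and 0.0413% at D2. No test was made because D1 was processed otherwise. In TET_WT and DNMT_WT the D0 and D2 levels also chose the tiles. Their shares and midpoints therefore rest on values of the rule, and those of the knockouts do not.

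Tiles differed in how far they had gone. On the quantile-normalised scale, above the midpoint between D0 and D2 at D1 lay 97 tiles in TET_WT, 82 in TET_KO, 73 in DNMT_WT and 56 in DNMT_KO. In all 4 lines 14 tiles were above the midpoint and 172 at or below it. Across the 342 tiles the levels at D1 were correlated between lines, with Pearson's r from 0.52 for TET_WT and DNMT_KO to 0.69 for the DNMT pair, over tiles that share the libraries' depth and are not replicates. The highest tiles at D1, chosen after their values were seen, were near Lax1, inside Asah1 and 903 kb from Pcdh9. The Asah1 tile (chr8:41348001-41350000), in the gene of acid ceramidase, read 1.19, 1.64 and 1.63 at D0, 2.49, 2.296 and 2.16 at D1 and -0.55, 0.54 and -0.05 at D2 in TET_WT. In DNMT_WT it read 1.42, 0.76 and 1.31, then 1.68, 1.44 and 1.56, then -0.44, 0.20 and -0.98. In TET_WT replicate 1 these values stood for 94 reads at D0 and 55 at D1, in libraries of 23686796 and 9998859 reads in tiles. The deposited step up to D1 thus overstates the change in the share of reads, and other deposited D1 values are raised likewise. Among the 3 lowest tiles at D1 the one inside Kcnip4 had -0.97, -1.26 and -2.18 at D1 in DNMT_WT, where D2 was -2.44, -1.26 and -3.30.

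At D1 few closing tiles differed between a knockout and its parent. In TET_KO against TET_WT 3 of the 342 were lower (0.0227% of all tested tiles) and 1 was higher (0.0208%), with 52 and 10 at an unadjusted p under 0.05. The median difference was -0.15 over the closing tiles and 0.01 over all tested tiles. Below 0 lay 212 of the 342 closing tiles, against 49.3% of all tested tiles. On chromosome 8 these were 26 of 28 closing tiles, and on the other chromosomes 186 of 314. In DNMT_KO against DNMT_WT 1 was lower (0.000325%) and none higher (0.0%), with 24 and 15 at an unadjusted p under 0.05 and a median of -0.03.

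The lower tiles in TET_KO were near Ralgps2, a Ral exchange factor gene, near Erich1 and inside Hydin, a gene of motile cilia. The Ralgps2 tile (chr1:156982001-156984000, 42.2 kb from the gene) read 0.71, 1.01 and 0.87 in TET_WT and -2.12, -0.47 and -2.83 in TET_KO, which stand for 2, 7 and 1 reads in the latter. The difference was -2.23 (SE 0.41, adjusted p = 0.00438), and without TET_KO D1 replicate 1 or 3 the value was 0.121 or 0.054. The Erich1 tile (chr8:14014001-14016000) read 2.47, 2.71 and 2.63 in TET_WT against 0.97, -0.28 and 0.63 in TET_KO (-1.80, SE 0.36, adjusted p = 0.0127; up to 0.156 without a library, with TET_KO replicate 2 and each TET_WT replicate ending the call). The Hydin tile (chr8:110520001-110522000) read 1.84, 1.87 and 1.12 against -1.12, -0.69 and 0.17 (-1.88, SE 0.41, adjusted p = 0.0369). That call held in 1 of 6 fits without a library, the highest value being 0.26 without TET_KO replicate 1. In none of these did the deposited values of the lines overlap, but deposited D1 values are not on the same scale among D1 libraries.

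The higher tile lies inside Clstn2 (chr9:97476001-97478000), a calsyntenin gene. It read 0.97, 1.31 and 1.42 in TET_KO and -0.29, -0.18 and -0.81 in TET_WT (1.85, SE 0.42, adjusted p = 0.0499), and no fit without 1 of the 6 libraries kept the call (0.0563 to 0.265). The tile lower in DNMT_KO was that of Jam2, the one tile called among all 307709. It read -0.11, -2.18 and -0.57 in DNMT_KO (6, 0 and 4 reads, an empty tile standing at the value of 0.9 read) and 1.12, 1.499 and 1.14 in DNMT_WT. The difference was -2.01 (SE 0.34, adjusted p = 0.015), and without DNMT_KO replicate 2, or DNMT_WT replicate 1 or 2, the value was 0.158, 0.0614 or 0.113. The Jam2 tile also had lower values in DNMT_KO at D0 in replicate 1. It is not in the set of 210.

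Chromosome 8 moved with the lower calls in TET_KO. Its 33682 tested tiles had a median difference between TET_KO and TET_WT of -0.47 at D0, -0.49 at D1 and -0.47 at D2, against 0.05, 0.06 and 0.06 on the other chromosomes. The 28 closing tiles on it had -0.65, -0.73 and -0.90, and the 314 others -0.10, -0.13 and 0.04. The tiles of Erich1, Hydin, Palld and Asah1 lie on it. All tested tiles of chromosomes 14 and 6 were also lower at D1 (-0.37 and -0.20). After each chromosome was centred on its median, the D1 comparison had 1 lower tile and no higher one, while the falls from D0 to D2 numbered 209 in TET_KO and 274 in DNMT_KO. The part of a chromosome-wide shift in the 3 D1 calls was not tested further.

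**Figure D5:**
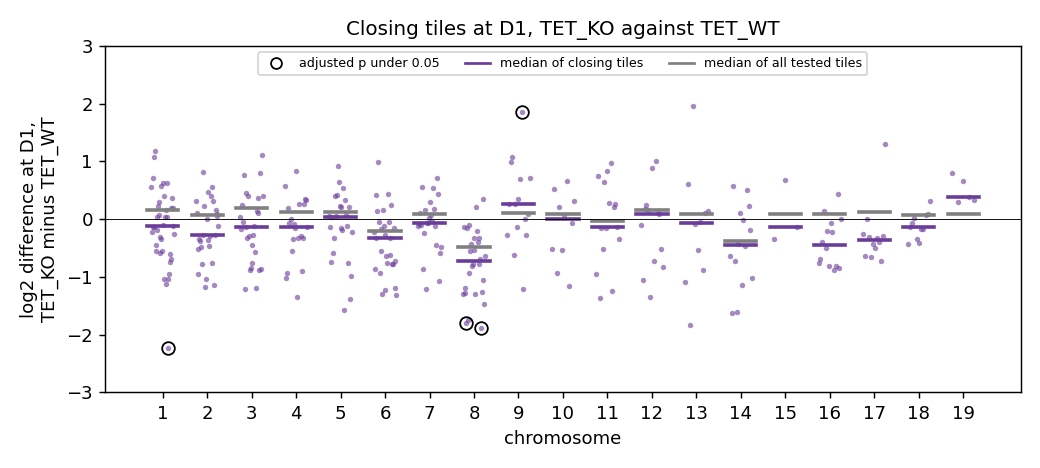
Log2 difference at D1 between TET_KO and TET_WT (vertical axis, quantile normalised) of the 342 closing tiles by chromosome (points), with the median of the closing tiles and of all tested tiles on each chromosome (lines) and a ring around the 4 called tiles. On chromosome 8 the medians lie at -0.73 and -0.49.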

How the data were processed

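ATAC-seq values of 35 libraries came as a deposited matrix of 2-kb tiles. The authors deposited log2 RPKM, per the file headers. The submitters' processing notes name Trim Galore 0.6.5, cutadapt 2.3, Bowtie2 2.4.1 and the build GRCm38. Shifting of read ends, duplicates, masking and reads with several matches are not given in the sources used here. Values were whole multiples of 1 read in 100% of tiles (tolerance 0.01 read), an empty tile standing at 0.9 read, so a fold change of a near-empty tile depends on that floor. No counting interval is given beyond the reads printed, and PCR reads without molecular identifiers are not independent molecules.

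The rule was applied to deposited values. Tiles of autosomes and X with a mean of at least -1 over all libraries (307709, among them all 342 closing tiles) entered, after quantile normalisation, a limma 3.58.1 fit in R 4.3.3 with a trend of variance on mean and 1 mean per group (23 residual degrees of freedom). The 5 contrasts used no parental D0 or D2 library in their means: D2 against D0 in each knockout, the difference of these, and knockout against parent at D1. P-values are 2-sided and adjusted by Benjamini-Hochberg over all tested tiles. A tile is called when this value is under 0.05. Levels per library are as deposited, and differences are after normalisation. Deposited D1 levels stand higher for the same share of reads than those of D0 and D2, so they are not to be set against other days. Nor are they on the same scale among the D1 libraries. In DNMT_KO at D1 the closing tiles held 0.0604% of reads in replicate 3, at a mean deposited level of -0.465. In replicate 1 they held 0.0565%, at 0.228. The fit was tested on simulated data.

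The closing tiles and the 10 gene lists (145 genes) were chosen with earlier results of these data known. Named tiles were the 10 with the largest smaller parental fall, the 5 largest and 5 smallest falls in each knockout, up to 5 called per direction at D1, all near list genes and loci of at least 3 tiles. Gene positions and start sites are from RefSeq for GRCm38.p6. The closing section gives the alternatives. The same-numbered replicates of the groups compared had correlations of deviations from -0.04 to 0.08, none over 0.1, so numbers were not taken as pairs.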

Additional observations from a re-analysis of the deposited data

How the results depend on the processing

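No closing tile was called higher from D0 to D2 in either knockout in any alternative run, and the number called lower depended on filter and depth. In TET_KO the 206 calls became 136 on deposited values, 76 with no filter on tiles, 84 with reads thinned to the shallowest library, and 91 to 153 without 1 library. In DNMT_KO the 266 became 121 with no filter, 119 after thinning and 200 to 231 without 1 library. Other settings gave 209 to 272 and 240 to 274. Of the calls, 42 of 206 held in all 5 fits without a library and 159 of 266 in all 6. Among tiles chosen without TET_WT D0 replicate 3, an alternative added after the data were seen, the calls were 134 and 160, and 0 lower in DNMT_KO at D1.

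At D1 the lower calls in TET_KO numbered 5 on deposited values, 1 after thinning, 1 with chromosomes centred (also added after the data were seen) and 1 to 2 without 1 library. The higher call was lost (0) on deposited values, with voom on the recovered reads, after thinning, with the replicate block, with chromosomes centred and without any 1 library. In DNMT_KO the lower calls at D1 numbered 3 on deposited values, 5 with no filter, 0 in a fit of the contrast's own groups, 0 with voom, 0 after thinning and 0 to 1 without 1 library. The difference between the knockouts gave 0 calls in each setting run.

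With the replicate block the counts were 209 and 268 lower from D0 to D2, 3 lower and 0 higher at D1 in TET_KO, 1 lower in DNMT_KO and 0 for the difference. The numbers are not shown to pair the libraries.

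The rule found 912 tiles with a fall of at least 1, 92 with at least 2, 514 with a D0 level of at least 0, 137 with at least 1, 485 on quantile-normalised values, and 216 to 449 without 1 parental library.

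Of the tiles named for small changes, the sign turned at Plekhb2 (-0.25 to 0.62 without 1 library, the lowest without TET_KO D2 replicate 1), Galntl5 in TET_KO (0.19 after thinning, -0.57 to 0.36 without 1 library, the highest without D0 replicate 3), Zfpm2 in TET_KO (0.018 after thinning), Atp8b2 in DNMT_KO (-0.57 to 0.044 without 1 library, the highest without D0 replicate 3) and Mob3c in DNMT_KO (0.30 after thinning). All these had no call. Depth limits single tiles most at D1 and D2, with medians of 5 to 14 reads.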
